A study of Homo sapiens with 9 samples.

Results

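The 9 genes described here encode the urokinase and tissue plasminogen activators (PLAU, PLAT), the urokinase receptor (PLAUR), a serpin that inhibits both activators (SERPINE2), the matrix metalloproteinases MMP2 and MMP14, and the metalloproteinase inhibitors TIMP1, TIMP2 and TIMP3. They were taken by symbol from a count table of 67140 genes, in which each symbol had 1 row, and all 9 passed the filter on low counts. The cells are DMS273, an established line of human small cell lung cancer, sequenced as 9 libraries. Control cells carried a scrambled guide (sgScr, genotype WT in the labels), ATG7 KO cells a CRISPRv2 knockout of ATG7, and ATG7/SQSTM1 KO cells knockouts of both ATG7 and SQSTM1, with 3 libraries in each group. All groups were grown in the same serum-containing medium, and the labels name no drug for these libraries. The labels do not say whether the edited cells were clones or pools, nor whether the libraries of a group came from separate cultures. The p-values below therefore measure the spread between these libraries, which may be technical. ATG7 encodes the E1-like enzyme of autophagosome formation and SQSTM1 encodes p62, an autophagy receptor.

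Plasminogen activators cut plasminogen, a circulating zymogen, into plasmin, a broad serine protease that degrades fibrin and matrix proteins and can activate other proteases. Urokinase bound to its receptor concentrates this reaction at the cell surface, and serpins stop it. MMP14 is anchored in the membrane and activates the secreted gelatinase MMP2 in a complex that needs TIMP2, which at higher levels inhibits MMP14. In carcinomas these genes are known for invasion and for expression in mesenchymal-like and stromal cells.

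The libraries held 28675576 to 34222098 counts, and mitochondrially encoded genes took 3.87% to 6.04% of them. Levels are given as CPM (counts scaled to library size, with TMM factors) and as mean ± SD with n = 3. ATG7 RNA averaged 27.1 ± 0.9, 11.7 ± 1.5 and 10.6 ± 0.55 CPM in control, ATG7 KO and ATG7/SQSTM1 KO. SQSTM1 averaged 376 ± 3.5, 391 ± 4.5 and 51.9 ± 3.3 CPM in the same order, so no library went against its label. As a marker of the line, NEUROD1 stood at 194 ± 3.9 CPM in control. All 8 neuroendocrine markers fell in ATG7 KO against control, and 5 of 5 tested non-neuroendocrine markers rose. All 8 neuroendocrine markers were higher and the 5 non-neuroendocrine markers lower in ATG7/SQSTM1 KO than in ATG7 KO, the comparison in which all 9 genes described here were lower. Against control, ATG7/SQSTM1 KO had 3 neuroendocrine markers higher and 3 lower, and 4 non-neuroendocrine markers higher and 0 lower. The summed neuroendocrine markers ran from 790 to 823 CPM in control, from 481 to 490 CPM in ATG7 KO and from 864 to 897 CPM in ATG7/SQSTM1 KO. The 6 listed non-neuroendocrine markers summed to 527 to 542, 780 to 828 and 570 to 594 CPM in the same order. UCHL1 (391 ± 14 CPM in control) and NEUROD1 made up most of the neuroendocrine sums. VIM (422 ± 10 CPM in control) made up most of the non-neuroendocrine sums. Of the neuroendocrine markers, NEUROD1, SYP and UCHL1 were called above control in ATG7/SQSTM1 KO, and INSM1, CHGB and NCAM1 below it.

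In ATG7 KO cells the RNA of all 9 genes was higher than in control. The rise ran from 1.41-fold for SERPINE2 to 3.82-fold for PLAUR. In ATG7/SQSTM1 KO cells the genes parted: PLAU and MMP14 were below control, PLAUR and PLAT were clearly above it, and the TIMP genes and MMP2 lay a little above it. Each of the 9 genes was lower in ATG7/SQSTM1 KO than in ATG7 KO. Across all tested genes, edgeR's quasi-likelihood test with Benjamini-Hochberg adjustment called 28.4% higher and 28.3% lower in ATG7 KO than in control, or 56.7% in either direction, beside 9 and 0 of these 9. For ATG7/SQSTM1 KO against control it called 19.0% of all tested genes higher and 19.6% lower (38.6% in all), beside 6 and 2 of the 9. Between both knockouts, as ATG7/SQSTM1 KO against ATG7 KO, it called 30.5% higher and 29.9% lower (60.5% in all), beside 0 and 9 of the 9. The libraries of the groups compared did not overlap for 9, 8 and 9 of the 9 genes in these comparisons, beside 62.4%, 48.8% and 65.9% of all tested genes. A change of at least 2-fold was seen for 5, 1 and 2 of the 9, beside 13.8%, 4.95% and 14.2% of all tested genes. Calls and groups without overlap were common among all genes. The 9 genes were chosen with earlier results of these data known, so values set beside all tested genes describe them and test nothing. The median log2 change of the 9 genes was 1.02, 0.18 and -0.73 in these 3 comparisons, beside -0.02, -0.01 and 0.02 for all tested genes. The comparisons share libraries, so their values are set side by side and not as independent results. In bulk RNA a change in the level per cell and a change in the share of cells that express a gene cannot be told apart.

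**Figure D1:**
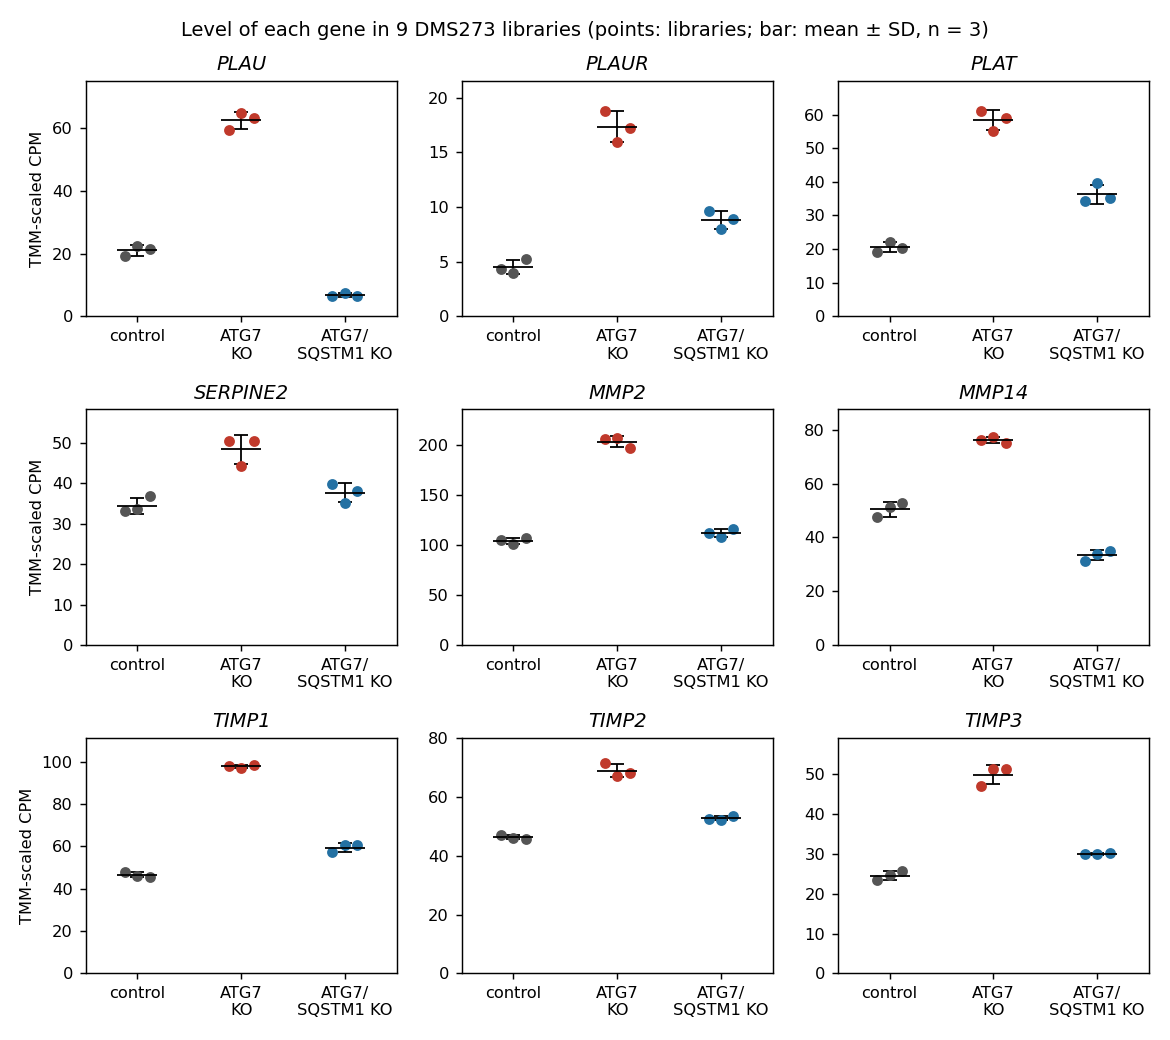
Level of each of the 9 genes (TMM-scaled CPM, linear axis from 0) in the control, ATG7 KO and ATG7/SQSTM1 KO libraries; points are libraries and bars are mean ± SD (n = 3). ATG7 KO is the highest group in every panel, and PLAU and MMP14 are lowest in ATG7/SQSTM1 KO.

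Markers of other cell types were read in the same libraries, since stromal cells also express these genes. Of 8 tested fibroblast markers 5 rose and 0 fell in ATG7 KO against control, and 6 rose and 0 fell in ATG7/SQSTM1 KO against control. Marker counts stand beside 28.4% of all tested genes called higher and 28.3% lower in ATG7 KO against control. For ATG7/SQSTM1 KO against control those shares were 19.0% and 19.6%. The summed level of all 9 listed fibroblast markers ran from 186 to 201 CPM in control, from 665 to 704 CPM in ATG7 KO and from 336 to 357 CPM in ATG7/SQSTM1 KO. COL3A1 and LUM made up most of it, with 75.1 ± 1.5 and 79.6 ± 6.3 CPM in control and 327 ± 7 and 225 ± 8.6 CPM in ATG7 KO. Between the knockouts, 4 of the 8 tested fibroblast markers were lower in ATG7/SQSTM1 KO than in ATG7 KO and 2 were higher. Those 2 were DCN (32.6 ± 1.1 against 21.2 ± 1.1 CPM) and PDGFRA (5.00 ± 0.098 against 2.23 ± 0.14 CPM). PDGFRB stood at 0.843 ± 0.12, 1.08 ± 0.28 and 0.614 ± 0.25 CPM and THY1 at 0.0968 ± 0.084, 0.165 ± 0.051 and 0.0319 ± 0.055 CPM in control, ATG7 KO and ATG7/SQSTM1 KO, and none of the 9 was at 0 in every library. Of 3 tested endothelial markers 3 rose in ATG7 KO against control, or 2 to 3 when 1 library was left out. In ATG7/SQSTM1 KO against control 0 rose and 1 fell. VWF (0.107 ± 0.044 CPM in control, 0.532 ± 0.072 CPM in ATG7 KO) passed the filter on low counts only through ATG7 KO, so its call may follow from the filter. With a minimum mean of 1 CPM, 0 endothelial markers were called higher. CDH5 and KDR were not tested. The summed level of all 5 listed ran from 1.71 to 2.07 CPM in control, from 3.38 to 3.82 CPM in ATG7 KO and from 0.828 to 1.41 CPM in ATG7/SQSTM1 KO. Of 4 tested blood markers 3 rose and 1 fell in ATG7 KO against control, and 2 rose and 2 fell in ATG7/SQSTM1 KO against control. PTPRC (0.174 ± 0.11 CPM in control, 1.47 ± 0.067 CPM in ATG7 KO) also needed its ATG7 KO level to pass the filter. With a minimum mean of 1 CPM, 1 blood marker was called higher in ATG7 KO. Sums of all 6 listed ran from 5.25 to 5.96, from 9.48 to 10.5 and from 3.26 to 4.29 CPM in control, ATG7 KO and ATG7/SQSTM1 KO. LYZ and CD3E had no count in any library. The part of these markers, of the neuroendocrine and non-neuroendocrine markers and of mitochondrial counts in the results below was not tested.

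The 2 plasminogen activators followed different courses. PLAU (ENSG00000122861; GRCh38 chromosome 10, 73909177 to 73917497, plus strand, protein coding), which encodes urokinase, measured 19.3, 22.5 and 21.6 CPM in control replicates 1 to 3, against 59.4, 64.9 and 63.3 CPM in ATG7 KO and 6.68, 7.62 and 6.44 CPM in ATG7/SQSTM1 KO. The 3 groups did not overlap, with ATG7 KO highest and ATG7/SQSTM1 KO lowest. PLAU rose 2.97-fold in ATG7 KO (log2 change 1.57, SE 0.06, edgeR adjusted p = 4.78e-15). Against control it fell by 1.61 on the log2 scale in ATG7/SQSTM1 KO (SE 0.073, edgeR adjusted p = 3.78e-13), to a level 3.05-fold lower. Its level was 9.07-fold lower in ATG7/SQSTM1 KO than in ATG7 KO (log2 change -3.18, SE 0.069, edgeR adjusted p = 5.59e-19), and 99.7% of all tested genes had a higher log2 change in that comparison. PLAT (ENSG00000104368; chromosome 8, 42175233 to 42207724, minus strand, protein coding), which encodes tissue plasminogen activator, stood at 19.2, 22.1 and 20.4 CPM in control, at 61.2, 55.2 and 59.0 CPM in ATG7 KO, and at 34.2, 39.5 and 35.1 CPM in ATG7/SQSTM1 KO. Its groups did not overlap either, but here control was lowest. PLAT rose 2.85-fold in ATG7 KO (log2 change 1.51, SE 0.062, edgeR adjusted p = 5.17e-13) and was 1.76-fold above control in ATG7/SQSTM1 KO (log2 change 0.82, SE 0.063, edgeR adjusted p = 1.41e-08).

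PLAUR (ENSG00000011422; chromosome 19, 43646095 to 43670547, minus strand, protein coding), the membrane-anchored receptor that holds urokinase at the cell surface, had 116 to 552 counts a library. These were the fewest of the 9 genes in control and ATG7 KO. In ATG7/SQSTM1 KO PLAU had fewer (229, 222 and 202 against 331, 233 and 279 for PLAUR). PLAUR stood at 4.36, 4.0 and 5.25 CPM in control, at 18.8, 16.0 and 17.3 CPM in ATG7 KO and at 9.65, 8.0 and 8.89 CPM in ATG7/SQSTM1 KO. No groups overlapped, and the order was the one of PLAT, not the one of PLAU. The rise of PLAUR in ATG7 KO was the largest of the 9 genes (log2 change 1.93, SE 0.11, edgeR adjusted p = 1.06e-12), and 1.17% of all tested genes rose more. It was 1.95-fold above control in ATG7/SQSTM1 KO (log2 change 0.96, SE 0.11, edgeR adjusted p = 3.45e-07) and there 1.96-fold below ATG7 KO (edgeR adjusted p = 2.21e-08). The receptor gene was above control in the cells in which its ligand gene was below control.

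SERPINE2 (ENSG00000135919; chromosome 2, 223975112 to 224039319, minus strand, protein coding) encodes protease nexin 1, a serpin that inhibits thrombin, urokinase and tissue plasminogen activator. It stood at 33.1, 33.6 and 36.8 CPM in control, at 50.5, 44.4 and 50.6 CPM in ATG7 KO and at 39.8, 35.2 and 38.1 CPM in ATG7/SQSTM1 KO. The ATG7 KO libraries lay above all others, while those of control and ATG7/SQSTM1 KO overlapped. SERPINE2 had the smallest rise of the 9 genes in ATG7 KO (log2 change 0.49, SE 0.059, edgeR adjusted p = 1.32e-06). Between ATG7/SQSTM1 KO and control the difference was 0.13 on the log2 scale (edgeR adjusted p = 0.0997, unadjusted 95% interval 0.004 to 0.257). That difference was 0.18 without control replicate 3 (edgeR adjusted p = 0.0394) and 0.17 without ATG7/SQSTM1 KO replicate 2 (edgeR adjusted p = 0.0375).

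Promoter sequence is shown for the 3 genes on which the contrast turns: PLAU and MMP14, which were lowest in ATG7/SQSTM1 KO, and PLAUR, which was not. The windows are from RefSeq (GRCh38.p14), run from 250 bases before to 50 bases after a transcript start, and are written 5′ to 3′ on the strand of the gene. Capitals mark matches to any of 5 searched motifs on either strand: AP-1 (TGANTCA), kappaB (GGANTTTCC), the interferon-stimulated response element ISRE (GAAANNGAA), the GC box bound by SP1 (GGGCGG) and the TATA box (TATAAA), with N for any base.
PLAU, chr10:73910882-73911181, plus strand: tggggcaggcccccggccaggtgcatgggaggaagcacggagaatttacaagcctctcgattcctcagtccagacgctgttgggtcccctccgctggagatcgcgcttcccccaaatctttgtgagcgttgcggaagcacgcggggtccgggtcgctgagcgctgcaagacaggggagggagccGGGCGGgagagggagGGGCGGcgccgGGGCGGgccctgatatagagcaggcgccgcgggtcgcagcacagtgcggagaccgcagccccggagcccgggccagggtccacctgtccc
MMP14, chr14:22836335-22836634, plus strand: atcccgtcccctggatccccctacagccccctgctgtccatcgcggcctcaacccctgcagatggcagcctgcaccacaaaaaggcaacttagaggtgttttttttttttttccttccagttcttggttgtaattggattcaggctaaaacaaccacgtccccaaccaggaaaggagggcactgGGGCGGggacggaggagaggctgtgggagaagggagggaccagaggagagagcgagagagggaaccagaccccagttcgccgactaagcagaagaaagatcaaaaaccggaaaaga
PLAUR, chr19:43670120-43670419, minus strand: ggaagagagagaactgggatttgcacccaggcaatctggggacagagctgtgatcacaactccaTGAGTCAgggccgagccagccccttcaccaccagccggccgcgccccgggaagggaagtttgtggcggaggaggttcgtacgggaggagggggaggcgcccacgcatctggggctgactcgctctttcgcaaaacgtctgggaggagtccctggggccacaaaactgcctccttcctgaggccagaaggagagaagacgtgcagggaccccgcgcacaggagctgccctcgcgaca

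The PLAU window held 3 GC boxes, at -66, -51 and -40 from the transcript start, and the MMP14 window 1, at -66. The PLAUR window held 1 AP-1 match, at -186, and no GC box. A second PLAU window in the table, around another start, held no match to the 5 motifs. Of 35116 windows of this length in the table, 45.0% held a GC box and 7.71% an AP-1 match. Windows were found for 6 of the 9 genes (PLAU, PLAUR, SERPINE2, MMP14, TIMP1 and TIMP3), and 5 of them held a GC box. Among the 5 were SERPINE2, TIMP1 and TIMP3, which were not below control in ATG7/SQSTM1 KO. KappaB (1.64% of all windows), ISRE (8.11%) and TATA (11.5%) had no match in the windows of these 6. A match is a string of letters and says nothing of binding.

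The 2 metalloproteinase genes also parted in ATG7/SQSTM1 KO. MMP2 (ENSG00000087245; chromosome 16, 55389700 to 55506691, plus strand, protein coding), gelatinase A, stood at 105, 101 and 107 CPM in control, at 206, 207 and 197 CPM in ATG7 KO, and at 112, 108 and 116 CPM in ATG7/SQSTM1 KO. The ATG7 KO libraries stood far above both other groups, which lay next to each other without overlap. MMP2 rose 1.95-fold in ATG7 KO (log2 change 0.96, SE 0.034, edgeR adjusted p = 7.35e-16). It was 1.07-fold above control in ATG7/SQSTM1 KO (log2 change 0.10, SE 0.034, edgeR adjusted p = 0.0198). This small difference missed the threshold without control replicate 2 (log2 change 0.08, edgeR adjusted p = 0.0993) and without ATG7/SQSTM1 KO replicate 3 (log2 change 0.07, edgeR adjusted p = 0.131). MMP14 (ENSG00000157227; chromosome 14, 22836557 to 22849027, plus strand, protein coding), the membrane-anchored activator of MMP2, stood at 47.5, 51.3 and 52.9 CPM in control, at 76.2, 77.3 and 75.0 CPM in ATG7 KO and at 31.4, 33.9 and 34.8 CPM in ATG7/SQSTM1 KO. Its groups did not overlap and had the order of PLAU. MMP14 rose 1.51-fold in ATG7 KO (log2 change 0.59, SE 0.045, edgeR adjusted p = 2.65e-10) and was 1.51-fold lower than control in ATG7/SQSTM1 KO (log2 change -0.60, SE 0.047, edgeR adjusted p = 2.05e-09). Against ATG7 KO, MMP14 was 2.28-fold lower in ATG7/SQSTM1 KO (edgeR adjusted p = 3.97e-15) and MMP2 1.81-fold lower (edgeR adjusted p = 4.7e-15).

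The 3 TIMP genes, which encode secreted inhibitors of metalloproteinases, kept 1 order in all cases: control lowest, ATG7/SQSTM1 KO between, ATG7 KO highest, with no overlap between groups. TIMP1 (ENSG00000102265; chromosome X, 47582313 to 47586789, plus strand, protein coding), which also acts as a growth factor, stood at 48.1, 46.2 and 45.7 CPM in control, at 98.1, 97.0 and 98.2 CPM in ATG7 KO and at 57.1, 60.6 and 60.6 CPM in ATG7/SQSTM1 KO. It rose 2.10-fold in ATG7 KO (log2 change 1.07, SE 0.037, edgeR adjusted p = 6.17e-16) and stood 1.27-fold above control in ATG7/SQSTM1 KO (edgeR adjusted p = 2.17e-07). TIMP2 (ENSG00000035862; chromosome 17, 78852977 to 78925387, minus strand, protein coding), the partner of MMP14 in the activation of MMP2, stood at 47.2, 46.2 and 45.8 CPM in control, at 71.5, 67.2 and 68.3 CPM in ATG7 KO and at 52.4, 52.2 and 53.5 CPM in ATG7/SQSTM1 KO. It rose 1.49-fold in ATG7 KO (log2 change 0.57, SE 0.038, edgeR adjusted p = 2.95e-11) and stood 1.14-fold above control in ATG7/SQSTM1 KO (edgeR adjusted p = 0.000568). TIMP3 (ENSG00000100234; chromosome 22, 32801701 to 32863043, plus strand, protein coding), which binds to the extracellular matrix, stood at 23.4, 24.8 and 25.6 CPM in control, at 47.2, 51.4 and 51.2 CPM in ATG7 KO and at 30.0, 29.9 and 30.4 CPM in ATG7/SQSTM1 KO. It rose 2.03-fold in ATG7 KO (log2 change 1.02, SE 0.048, edgeR adjusted p = 1e-13) and stood 1.22-fold above control in ATG7/SQSTM1 KO (edgeR adjusted p = 7.07e-05). Between the knockouts the TIMP genes were lower in ATG7/SQSTM1 KO by log2 changes of -0.72, -0.39 and -0.73 for TIMP1, TIMP2 and TIMP3.

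**Figure D2:**
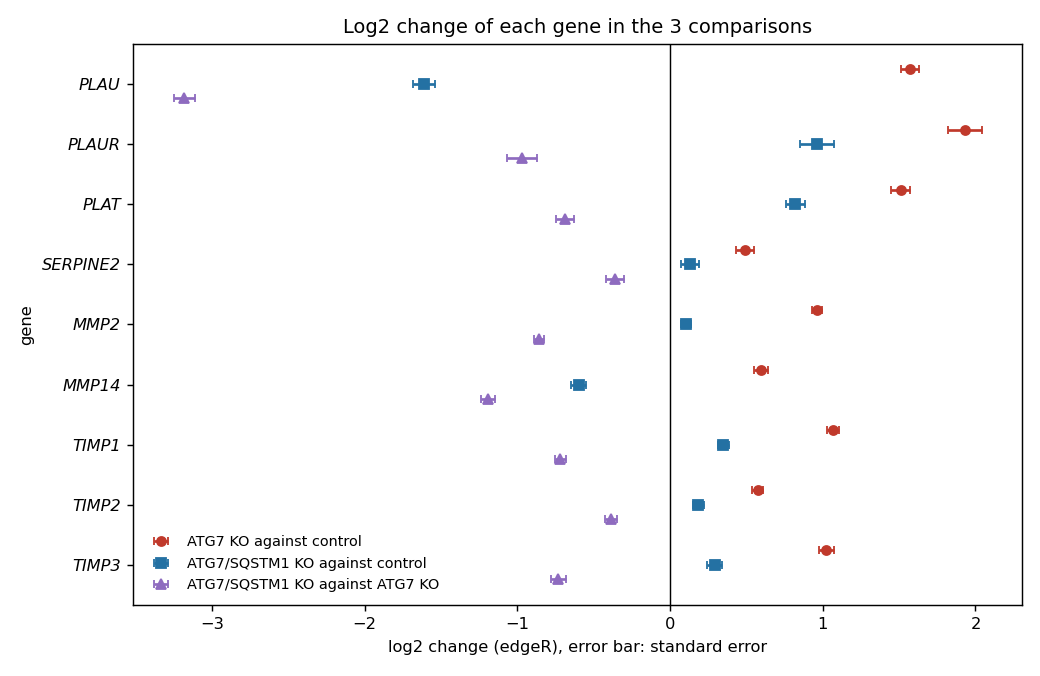
Log2 change (edgeR) of each gene in the 3 comparisons, with its standard error. The changes in ATG7 KO against control all lie above 0, from 0.49 to 1.93, those between the knockouts all lie below 0, and PLAU and MMP14 alone lie below 0 in ATG7/SQSTM1 KO against control.

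TIMP1 lies within SYN1, and TIMP3 within SYN3, on the opposite strand in both cases and with no shared exon base in GENCODE 29. SYN1, a synaptic vesicle gene, averaged 4.44 ± 0.62, 1.66 ± 0.37 and 4.62 ± 0.47 CPM in control, ATG7 KO and ATG7/SQSTM1 KO, and fell in ATG7 KO (log2 change -1.41, edgeR adjusted p = 4.51e-07), where TIMP1 rose. SYN3 had 1 to 11 counts a library. C10orf55 shares 916 exon bases with PLAU on the opposite strand and had 0 to 13 counts a library. Whether the counting used strand is not given in the sources used here. Other annotated genes that overlap the 9 had at most 4 counts in any library.

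Levels of different genes can be compared only per length, here as CPM per kb of merged exons. On this scale TIMP1 was the most abundant of the 9 genes in control (30.3 ± 0.82 CPM per kb), followed by MMP2 (21.1 ± 0.59), MMP14 (11.3 ± 0.62), TIMP2 (8.23 ± 0.13), PLAU (7.15 ± 0.56), TIMP3 (5.34 ± 0.25), SERPINE2 (3.88 ± 0.22), PLAT (3.10 ± 0.22) and PLAUR (1.02 ± 0.14). In ATG7 KO, PLAU (21.2 ± 0.95 CPM per kb) followed TIMP1 (63.5 ± 0.43) and MMP2 (41.2 ± 1.1) and exceeded MMP14 (17.1 ± 0.25). In ATG7/SQSTM1 KO, PLAU (2.34 ± 0.21 CPM per kb) was second lowest, above PLAUR (1.99 ± 0.19), and the levels of these 2 genes lay closer than in the other groups. The merged exons include rare isoforms, so these levels depend on the annotation.

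Ratios of per-length levels within a library show the same split and are given without a test. PLAU exceeded PLAT by a ratio of 2.25, 2.28 and 2.37 in the control libraries and of 2.18, 2.64 and 2.41 in the ATG7 KO libraries, which overlapped. Before division by length their means were alike, 21.1 and 20.5 CPM in control and 62.5 and 58.4 CPM in ATG7 KO. That excess of PLAU thus rests on the merged exon lengths, 2950 bases for PLAU and 6618 for PLAT. In the ATG7/SQSTM1 KO libraries the ratio was 0.438, 0.433 and 0.412, so PLAT exceeded PLAU. PLAUR over PLAU was 0.118 to 0.161 in control, 0.163 to 0.210 in ATG7 KO and 0.695 to 0.957 in ATG7/SQSTM1 KO. SERPINE2 over the sum of both activators was lowest in ATG7 KO (0.165 to 0.193), against 0.345 to 0.399 in control and 0.463 to 0.603 in ATG7/SQSTM1 KO. The inhibitor TIMP2 over MMP14 ran from 0.686 to 0.787 in control and from 0.689 to 0.744 in ATG7 KO, and from 1.22 to 1.32 in ATG7/SQSTM1 KO. The sum of the 3 TIMP genes over the sum of MMP2 and MMP14 was 1.30 to 1.40 in control, 1.45 to 1.53 in ATG7 KO and 1.77 to 1.86 in ATG7/SQSTM1 KO, with no overlap between groups. TIMP1 (30.3 CPM per kb in control) made up most of the first sum and MMP2 (21.1 CPM per kb) most of the second.

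**Figure D3:**
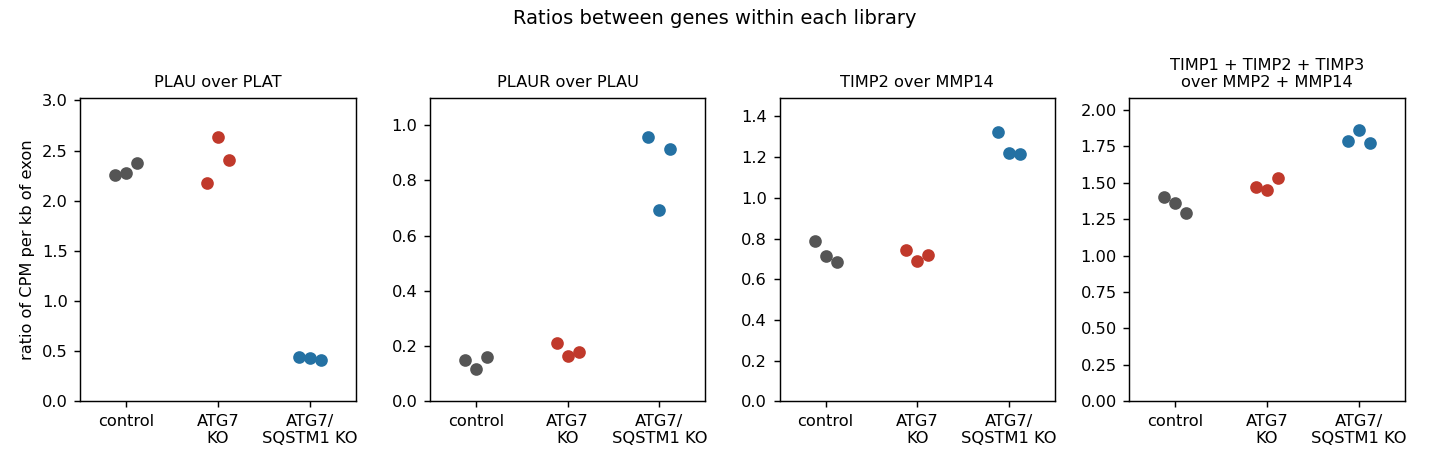
Ratios between genes within each library (CPM per kb of merged exon, linear axes from 0; points are libraries). PLAU over PLAT falls from at least 2.18 in control and ATG7 KO to at most 0.438 in ATG7/SQSTM1 KO, while PLAUR over PLAU and TIMP2 over MMP14 are highest there.

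Across the 9 libraries the log2 levels of the 9 genes were positively correlated in all 36 pairs, with Pearson r from 0.452 for PLAU and PLAT to 0.995 for PLAU with MMP14 and for TIMP1 with TIMP2. These values describe 3 groups of 3 libraries and carry no test. Among 11235 other protein-coding genes with a mean of at least 5 CPM over the 9 libraries, the 2 most similar to PLAU were YWHAG (r = 0.998) and ASCC3 (r = 0.996), those most similar to MMP14 were SLC39A7 (r = 0.998) and the ferroxidase gene CP (r = 0.996), and those most similar to PLAUR were the receptor tyrosine kinase gene RET (r = 0.993) and RBMS1 (r = 0.993). CP stood at 17.0 ± 1.1, 38.2 ± 1.1 and 5.79 ± 0.79 CPM and RET at 1.33 ± 0.38, 13.7 ± 0.10 and 3.86 ± 0.36 CPM in control, ATG7 KO and ATG7/SQSTM1 KO, so RET passed the minimum mean through its level in ATG7 KO. For PLAT they were TAF1 and ATP6V0D1, for SERPINE2 UBXN11 and AAGAB, for MMP2 UBE2L6 and NQO1, for TIMP1 GNAI1 and CD36, for TIMP2 PDIA4 and TPD52L1, and for TIMP3 DENND2B and RCOR1. With 3 groups such values are common: 669 to 1700 genes passed r = 0.9 with each of the 9.

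Of 29 other genes of the plasminogen system, which include activator inhibitors, plasminogen receptors and clearance receptors, 24 were tested. In ATG7 KO against control 14 rose and 6 fell (median log2 change 0.44), and in ATG7/SQSTM1 KO against control 6 rose and 4 fell (median 0.11), or 5 to 8 and 2 to 4 when 1 library was left out, with 2 falling without control replicate 1. Of all tested genes, 28.4% rose and 28.3% fell in the comparison of ATG7 KO with control. The shares for ATG7/SQSTM1 KO against control were 19.0% and 19.6%. The subunits of the annexin A2 heterotetramer, a cell surface receptor for plasminogen and tissue plasminogen activator, rose in ATG7 KO: ANXA2 from 243 ± 4.5 to 405 ± 6.4 CPM and S100A10 from 40.8 ± 3.7 to 86.6 ± 2.7 CPM. Their levels in ATG7/SQSTM1 KO were 231 ± 3.6 and 45.8 ± 0.72 CPM. IGF2R, a receptor that binds PLAUR and plasminogen, rose from 233 ± 6.7 to 358 ± 12 CPM in ATG7 KO and was below control in ATG7/SQSTM1 KO, at 196 ± 3.4 CPM (log2 change -0.25, edgeR adjusted p = 7.76e-07). PLG, plasminogen itself, had 3 counts in control replicate 1, 2 counts in ATG7/SQSTM1 KO replicate 2 and 0 in the other 7 libraries, where a count of 0 allows up to 0.0877 to 0.105 CPM (counting error only).

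Of 21 other matrix metalloproteinases listed, 10 did not pass the filter, among them MMP3, MMP8, MMP12, MMP26 and MMP27 with no count in any library. Of 11 tested, 3 rose and 4 fell in ATG7 KO against control (median log2 change -0.22), shares near the 28.4% and 28.3% of all tested genes, with 1 to 3 and 2 to 4 when 1 library was left out. Without control replicate 1 the counts were 1 and 2, without ATG7 KO replicate 1 only 1 rose, and without ATG7 KO replicate 2 only 2 fell. For ATG7/SQSTM1 KO against control 3 rose and 3 fell (median 0.06), beside 19.0% and 19.6% of all tested genes. MMP9, gelatinase B, had the order of PLAU, with 6.65 ± 0.56, 15.4 ± 0.69 and 4.01 ± 0.23 CPM in control, ATG7 KO and ATG7/SQSTM1 KO (log2 change -0.73 against control, edgeR adjusted p = 5.42e-06). MMP16, a membrane-type metalloproteinase, ran the other way, with 11.4 ± 0.13, 5.25 ± 0.6 and 22.7 ± 1.2 CPM (log2 change -1.12 in ATG7 KO and 0.99 in ATG7/SQSTM1 KO against control, edgeR adjusted p = 4.24e-10 and 2.11e-09). MMP13, a collagenase, had similar values in control (4.50 ± 0.093 CPM) and ATG7 KO (4.54 ± 0.05 CPM, log2 change 0.01, edgeR adjusted p = 0.953) and fell to 0.332 ± 0.2 CPM in ATG7/SQSTM1 KO (log2 change -3.76, edgeR adjusted p = 1.94e-10). MMP15, another membrane-type member, rose from 22.4 ± 1.3 to 37.8 ± 0.8 CPM in ATG7/SQSTM1 KO (edgeR adjusted p = 1.02e-09) and stood at 24.6 ± 1.6 CPM in ATG7 KO.

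Of 24 tested ADAM and ADAMTS genes 9 rose and 9 fell in ATG7 KO against control (median log2 change -0.06). When 1 library was left out 7 to 9 rose and 6 to 9 fell, and with a minimum mean of 1 CPM 5 rose and 7 fell. In ATG7/SQSTM1 KO against control 6 rose and 8 fell (median -0.03). In that comparison 5, 4 and 5 fell without control replicate 2, control replicate 3 and ATG7/SQSTM1 KO replicate 1. The procollagen N-proteinase genes ADAMTS2 and ADAMTS14 fell in ATG7 KO (log2 changes -1.24 and -1.49), as did ADAM22, a neuronal member without protease activity (-1.26), whereas ADAM12 rose (1.16). Of 10 tested inhibitors, inducers and activators of metalloproteinases 5 rose and 4 fell in ATG7 KO (median 0.14), and 3 rose and 1 fell in ATG7/SQSTM1 KO against control. TIMP4, the other gene of the TIMP family, had no count in any library. LCN2, which binds MMP9, rose from 1.32 ± 0.19 to 11.7 ± 0.77 CPM in ATG7 KO, and PCOLCE, an enhancer of procollagen C-proteinase, from 73.4 ± 1.1 to 142 ± 1.2 CPM, while the convertase PCSK6 fell from 46.8 ± 2.3 to 26.0 ± 0.86 CPM and PCOLCE2 from 53.3 ± 1 to 42.4 ± 0.96 CPM. Of 15 tested other pericellular proteases 10 rose and 3 fell in ATG7 KO (median 0.37), and 2 rose and 4 fell in ATG7/SQSTM1 KO against control (median -0.03). The counts of these lists stand beside 28.4% of all tested genes higher and 28.3% lower in ATG7 KO than in control. For ATG7/SQSTM1 KO against control those shares were 19.0% and 19.6%. CTSS, cathepsin S, had the order of PLAU, with 122 ± 2, 170 ± 3.8 and 57.7 ± 3 CPM in control, ATG7 KO and ATG7/SQSTM1 KO. PRSS23, a serine protease, rose from 8.45 ± 0.28 to 29.9 ± 0.93 CPM in ATG7 KO and stood at 9.11 ± 1.1 CPM in ATG7/SQSTM1 KO. CPA4, a carboxypeptidase, was high in both knockouts (40.8 ± 2.2 and 44.9 ± 1.2 CPM, against 5.33 ± 0.035 CPM in control), and ANPEP, aminopeptidase N, stood at 5.65 ± 0.042, 5.09 ± 0.24 and 0.925 ± 0.3 CPM in control, ATG7 KO and ATG7/SQSTM1 KO.

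**Figure D4:**
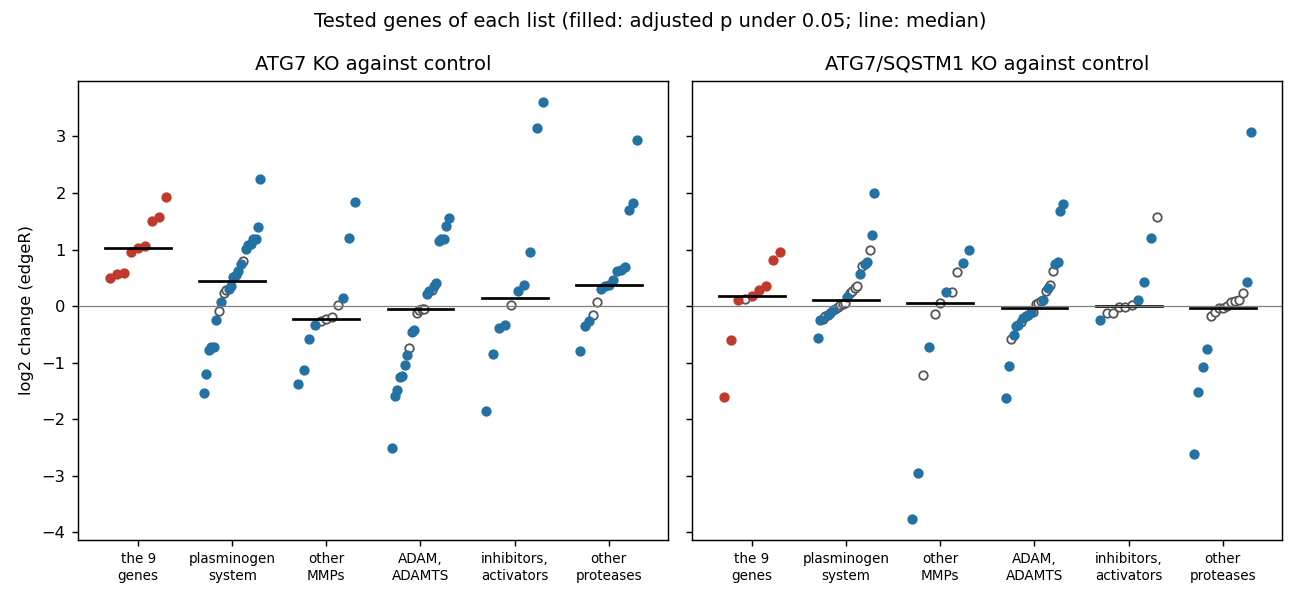
Log2 change (edgeR) of the 9 genes and of every tested gene in 5 lists of related genes, for each knockout against control; filled points have an adjusted p under 0.05 and lines are medians. The 9 genes have the highest median in ATG7 KO (1.02), and all lie above 0 there, while each of the 5 lists has genes on both sides of 0. Genes and lists were chosen with earlier results of these data known, so this difference may follow from that choice and is no test.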

How the data were processed

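RNA was depleted of rRNA and made into strand-specific libraries, per the labels' protocols. HISAT2 and the genome build hg38 are named in the submitters' processing notes. How reads were counted, on which annotation and with which use of strand, is not given in the sources used here. Values as deposited are raw counts per gene, and 362598 missing cells were read as 0. Left out were 1 row that names no gene and 1 unlabelled column of zeros. IDs were matched to GENCODE 29 (GRCh38) for coordinates and exon length (58503 matched).

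Tests used edgeR 4.0.16 in R 4.3.3 (filterByExpr, minimum count 10, 18847 genes; TMM factors 0.977 to 1.01; robust quasi-likelihood fit of all 9 libraries, 6 residual degrees of freedom; Benjamini-Hochberg adjusted p under 0.05). Log2 levels used a prior count of 2. The code was tested on simulated data. Libraries of a group differed by more than sampling gives (chi-square per degree of freedom 4.47 to 7.03). Named were all members, up to 4 genes per list with the smallest p, genes overlapping a member and the 2 genes most correlated with each member. Some genes that this rule names are not reported here. Alternatives were other scalings, other filters, DESeq2 1.42.0, fits of 6 libraries, leaving out each library, and a replicate block. The members and lists were chosen with earlier results of these data known.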

Additional observations from a re-analysis of the deposited data

How the results depend on the processing

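The 9 genes were refitted under 16 alternatives in 3 comparisons, which gave 432 values. Of these, 427 kept their direction and their side of the threshold, 2 lost the call (MMP2 in ATG7/SQSTM1 KO against control), 3 gained it (SERPINE2 in the same comparison) and 0 reversed. The number of the 9 genes called was 9 in each alternative when ATG7 KO was compared with control or with ATG7/SQSTM1 KO, and 7 to 9 for ATG7/SQSTM1 KO against control. PLAU in the last comparison ranged from -1.68 to -1.56 and MMP14 from -0.64 to -0.56 on the log2 scale. The replicate numbers do not pair the libraries: deviations of same-numbered libraries correlated at -0.061 to 0.023. With the replicate block, 10564, 7137 and 11262 genes were called in the 3 comparisons (10688, 7281 and 11395 without it), and SERPINE2 passed in ATG7/SQSTM1 KO against control (log2 change 0.13, edgeR adjusted p = 0.0458). Among the other named genes, small uncalled differences changed sign: MMP13 in ATG7 KO against control was -0.027 with library totals alone, and in ATG7/SQSTM1 KO against control PCOLCE2 ran from -0.025 to 0.008 and SYN1 from -0.028 to 0.166 when 1 library was left out. Groups of 3 libraries limit what single differences can show, and PLAUR rests on 116 to 552 counts a library. PLAU in ATG7/SQSTM1 KO rests on 202 to 229 counts a library.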
